A study of Mus musculus with 4 samples.

Results

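The testis-specific serine kinases are a family of 6 mouse genes, Tssk1, Tssk2, Tssk3, Tssk4, Tssk5 and Tssk6, taken here by their symbols. The deposited table holds 6 of 6 among its 23980 genes. Their proteins (TSSK) add phosphate to serine and threonine residues of other proteins. They are known from haploid spermatids and sperm, where TSSK1 and TSSK2 act in the shaping of the spermatid and TSSK6 in the packing of its chromatin. TSSK proteins belong to the same branch of the kinase tree as AMPK, the energy-sensing kinase, and need the chaperone HSP90 for their stability.

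To study how loss of Pld6 or Dnmt3l affects gene expression, polyA(+) RNA was sequenced from spermatocytes at the leptotene and zygotene stages (L/Z) that open meiosis, isolated by fluorescence-activated cell sorting (FACS). All animals were F1 hybrids of C57BL6/J and MSM/Ms at 3 to 4 weeks after birth. There was 1 library each from Dnmt3L_Het (heterozygote), Dnmt3L_KO, Pld6 KO and Pld6 WT animals, named Dnmt3L Het, Dnmt3L KO, Pld6 KO and Pld6 WT here. Pld6 encodes an enzyme needed to make piRNAs, and Dnmt3l a cofactor of de novo DNA methylation. Male germ cells that lack either gene are known to die in meiosis before the pachytene stage, so a testis of these mutants holds no spermatids, whereas control testes at this age do. No genotype had a replicate library, and how many animals gave each library is not given in the sources used here.

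The libraries held from 30439943 (Pld6 KO) to 63875934 (Dnmt3L Het) fragments in genes. These totals exceed the numbers of reads that the study's methods give for such libraries, for a reason that the sources used here do not give. The targeted genes followed the labels, with Pld6 at 19.5 FPKM in Pld6 WT and 0.334 FPKM in its KO, and Dnmt3l at 1.27 FPKM in Dnmt3L Het and 0 fragments in its KO. The L/Z markers were present in every library, with Sycp3, a protein of the chromosome axis in meiosis, between 285 FPKM (Dnmt3L KO) and 782 FPKM (Pld6 WT). Their levels differed between the controls. Of 15 L/Z markers, 9 were more than 2-fold lower in Dnmt3L Het than in Pld6 WT on the log2(FPKM + 1) scale. The other 6 were within 2-fold, and the median ratio of FPKM was 0.441. The libraries also held RNA of other cells in unequal amounts. The median of 16 Sertoli cell markers was 206 FPKM in Dnmt3L Het and 252 FPKM in Dnmt3L KO, against 20.4 FPKM in Pld6 KO and 7.69 FPKM in Pld6 WT. Prm1, a protamine made by late spermatids, was at 2372 FPKM in Dnmt3L Het, 16.3 FPKM in Pld6 WT and no more than 2.87 FPKM in the mutants. The sorted control fractions, labelled L/Z, thus held transcripts that spermatids are known for. Of 16 spermatid markers, 10 were more than 2-fold higher in Dnmt3L Het than in Pld6 WT on the log2(FPKM + 1) scale and 6 were within 2-fold.

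Positions are those of RefSeq genes on GRCm38, the assembly of mm10. Tssk1 (chromosome 16, 17894203 to 17895653) and Tssk2 (chromosome 16, 17898637 to 17900024) lie on the plus strand in the same direction, with 2983 bases between them, and each consists of 1 exon. Tssk6 (chromosome 8, 69902184 to 69903518) has 1 exon as well. Tssk3 (chromosome 4, 129489008 to 129491730) has 2 exons, Tssk4 (chromosome 14, 55643651 to 55652539) has 4 and Tssk5 (chromosome 15, 76371958 to 76375191) has 8, counted in 1 GENCODE transcript per gene. Tssk1 and Tssk2 share 125 stretches of 50 bases, the read length, which are 9.34% of the 1339 stretches of the Tssk2 transcript. Reads of these stretches could have been split between the neighbours, so their separate values are uncertain to that extent. In all, 140 of the 3651 stretches of Tssk1 are shared, with Tssk2 or with Dgcr2, the gene before it. They were counted on a GENCODE transcript of 3700 bases, longer than the RefSeq gene of 1451 bases. Tssk6 shares 326 of its 1286 stretches (25.3%) with Ndufa13, a gene of mitochondrial complex I on the opposite strand that overlaps it by 375 bases. The library kit keeps the strand, but whether strand was used in counting is not given in the sources used here. Tssk3, Tssk4 and Tssk5, each taken as its 1 GENCODE transcript, share 0 stretches with GENCODE transcripts of other genes.

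Promoter windows from RefSeq (GRCm38.p6), from 250 bases before to 50 bases after the transcription start, were given for 5 of the 6 genes, all but Tssk5. The windows of Tssk1, Tssk2 and Tssk6 are shown because they hold letters like the cAMP response element (CRE), the site bound by the spermatid factor CREM. Capitals mark TGACTTCA on either strand (Tssk1 and Tssk2) and the CRE half-site TGACG (Tssk6), and each window is written 5′ to 3′ on the plus strand, which is the strand of all 3 genes.
Tssk1, chr16:17893953-17894252: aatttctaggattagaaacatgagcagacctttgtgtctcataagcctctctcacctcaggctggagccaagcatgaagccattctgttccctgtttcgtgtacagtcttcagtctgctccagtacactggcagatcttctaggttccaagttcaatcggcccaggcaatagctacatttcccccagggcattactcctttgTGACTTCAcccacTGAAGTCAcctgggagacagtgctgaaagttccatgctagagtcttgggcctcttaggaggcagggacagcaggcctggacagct
Tssk2, chr16:17898387-17898686: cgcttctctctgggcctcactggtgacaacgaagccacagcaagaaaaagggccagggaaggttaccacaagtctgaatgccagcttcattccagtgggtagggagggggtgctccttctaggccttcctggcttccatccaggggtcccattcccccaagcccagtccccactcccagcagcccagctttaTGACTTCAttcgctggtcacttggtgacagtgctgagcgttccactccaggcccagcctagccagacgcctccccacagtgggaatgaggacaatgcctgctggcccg
Tssk6, chr8:69901934-69902233: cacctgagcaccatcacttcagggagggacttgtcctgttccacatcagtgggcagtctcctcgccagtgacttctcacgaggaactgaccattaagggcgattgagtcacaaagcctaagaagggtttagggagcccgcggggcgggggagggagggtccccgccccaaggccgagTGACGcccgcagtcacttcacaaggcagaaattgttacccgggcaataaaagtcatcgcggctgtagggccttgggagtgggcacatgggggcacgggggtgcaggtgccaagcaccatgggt
In Tssk1, TGACTTCA lies at -48 to -41 from the start and its reverse complement at -35 to -28, and in Tssk2 it lies at -58 to -51. The letters TGACTTCA were picked after the windows had been read. Of 32851 windows of all genes, 1.52% hold them on either strand. The full CRE, TGACGTCA, is in 0 of the 5 windows and in 1.79% of all windows. Its half-site TGACG, which the full CRE also contains, is in 1 of 5 (Tssk6) and in 20.8% of all windows. The core AACNG of MYB factors, the family of the meiotic regulator MYBL1, is in 4 of 5 windows and in 80.3% of all. The TATA box letters TATAAA are in 0 of 5 and in 13.6% of all windows. These matches describe letters, and no binding was measured here.

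The level of each gene was first compared among the 4 libraries. Every Tssk gene was lower in both mutants than in both controls, with both mutants below both controls at 6 of 6 genes. Over all genes this held for 17.9%, and for 20.7% of the 14416 genes with mean FPKM of at least 1. FPKM scales fragments to transcript length and library depth, so levels can be set side by side between genes. The 6 genes together summed to 127 FPKM (9207 fragments) in Dnmt3L Het and 40.7 FPKM (1912 fragments) in Pld6 WT. In the mutants they summed to 4.71 FPKM (Pld6 KO, 174 fragments) and 2.90 FPKM (Dnmt3L KO, 159 fragments). In bulk RNA, fewer cells of a type and less RNA per cell cannot be told apart.

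**Figure D1:**
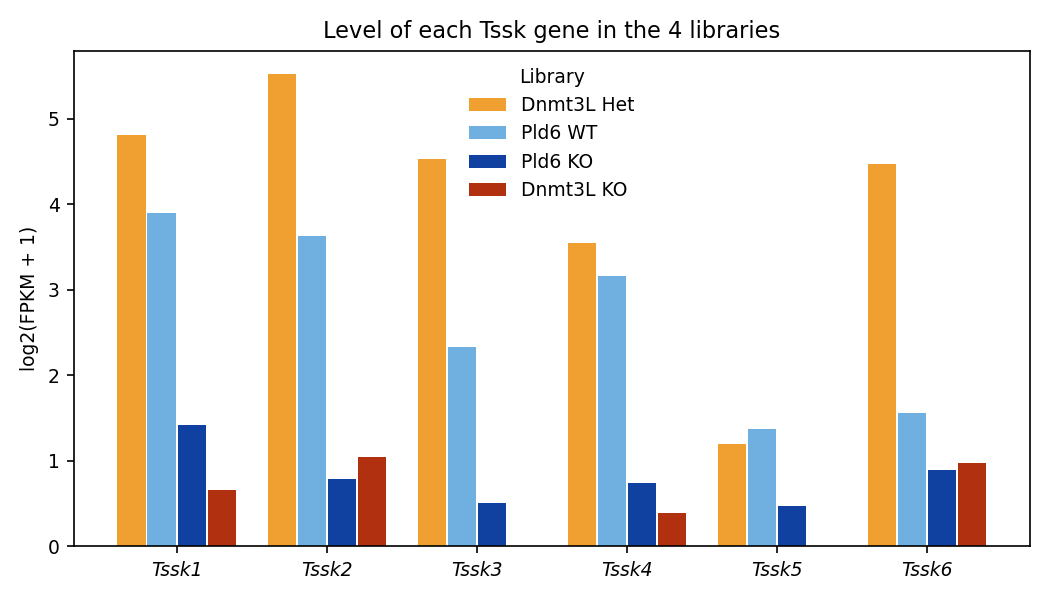
Level of each Tssk gene, as log2(FPKM + 1) on the vertical axis, with 1 bar for each of the 4 libraries and no error bars, since no genotype had a replicate. The bars of the KO libraries are shorter than those of both controls for every gene, and the bars of Dnmt3L KO are at 0 for Tssk3 and Tssk5.

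Tssk1 and Tssk2, the neighbouring pair of kinases that bind the substrate TSKS, had the highest levels of the family in the controls. Tssk1 was at 26.9 FPKM in Dnmt3L Het and 13.9 FPKM in Pld6 WT, against 66 fragments (1.67 FPKM) in Pld6 KO and 34 fragments (0.574 FPKM) in Dnmt3L KO. Tssk2 was at 44.8 FPKM in Dnmt3L Het and 11.3 FPKM in Pld6 WT, against 27 fragments (0.718 FPKM) in Pld6 KO and 60 fragments (1.07 FPKM) in Dnmt3L KO. Both mutants were thus far below the lower control for this pair.

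Tssk3 and Tssk4 followed in Pld6 WT, while in Dnmt3L Het Tssk4 stood below Tssk6. Tssk3, known from the same late germ cells, was at 22.0 FPKM in Dnmt3L Het and 4.01 FPKM in Pld6 WT, against 0.417 FPKM (11 fragments) in Pld6 KO. In Dnmt3L KO it had 0 fragments, and the limit of 3 fragments set for a count of 0 corresponds to 0.0761 FPKM. Tssk4, whose protein phosphorylates the sperm tail protein ODF2, was at 10.6 FPKM in Dnmt3L Het and 7.92 FPKM in Pld6 WT, against 24 fragments (0.666 FPKM) in Pld6 KO and 15 fragments (0.304 FPKM) in Dnmt3L KO. The controls lay close together for Tssk4 and apart for Tssk3.

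Tssk5 and Tssk6 had the lowest levels in Pld6 WT. Tssk5 was at 1.29 FPKM (110 fragments) in Dnmt3L Het and 1.59 FPKM (85 fragments) in Pld6 WT, against 0.385 FPKM (16 fragments) in Pld6 KO. It had 0 fragments in Dnmt3L KO, where 3 fragments would be 0.0482 FPKM. Tssk6 was at 21.1 FPKM in Dnmt3L Het but 1.94 FPKM (87 fragments) in Pld6 WT, and the mutants had 30 fragments (0.859 FPKM, Pld6 KO) and 50 fragments (0.957 FPKM, Dnmt3L KO). For Tssk6 the Pld6 WT library lay closer to the mutants than to the other control. Ndufa13, which shares sequence with Tssk6, was between 99.0 and 178 FPKM in the 4 libraries, and its part in the low Tssk6 values was not tested.

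The order of the genes within a library was read with 95% Poisson intervals of their fragments. Like the intervals of folds given later, they cover counting error only and may be too narrow, since the fragment totals exceed the stated reads and no molecular identifiers were used. In Dnmt3L Het the order was Tssk2, Tssk1, Tssk3, Tssk6, Tssk4 and Tssk5, and the intervals of Tssk3 (20.8 to 23.3 FPKM) and Tssk6 (20.1 to 22.2 FPKM) overlapped. In Pld6 WT it was Tssk1, Tssk2, Tssk4, Tssk3, Tssk6 and Tssk5, and the intervals of Tssk6 (1.55 to 2.39 FPKM) and Tssk5 (1.27 to 1.97 FPKM) overlapped. Other neighbours in these orders did not overlap in the controls. In the KO libraries the genes ranged from 0.385 to 1.67 FPKM (Pld6 KO) and from 0 to 1.07 FPKM (Dnmt3L KO). Tssk2 made up 35.3% of the family's FPKM in Dnmt3L Het, while Tssk1 made up 34.2% in Pld6 WT.

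Pld6 KO was then compared with Pld6 WT, the control of its own line. Tssk2 was 15.8-fold lower (95% counting interval 10.7 to 24.2), Tssk4 11.9-fold (7.86 to 18.8), Tssk3 9.63-fold (5.21 to 19.7) and Tssk1 8.35-fold (6.48 to 10.9). Tssk5 was 4.14-fold lower (2.41 to 7.56) and Tssk6 2.26-fold lower (1.48 to 3.54). These folds are ratios of FPKM. On the scale of log2(FPKM + 1), where low genes show less than their true fold, the 6 changes ranged from -2.84 (Tssk2) to -0.66 (Tssk6) with a median of -2.12. The median of all genes was 0.00 on that scale. By the rule of more than 2-fold lower on that scale, 4 of the 6 genes were called, all but Tssk5 and Tssk6, against 6.46% of all genes. Among genes with mean FPKM of at least 1 it was 4 of 5 against 9.95%.

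In Dnmt3L KO against Dnmt3L Het the differences were larger. Tssk1 was 46.9-fold lower (33.5 to 67.9), Tssk2 42.0-fold (32.5 to 55.2), Tssk4 35.0-fold (21.1 to 62.8) and Tssk6 22.0-fold (16.6 to 29.8). Tssk3 was at least 289-fold and Tssk5 at least 26.8-fold lower, with the limit of 3 fragments in the KO library. On the scale of log2(FPKM + 1) the changes ranged from -4.52 (Tssk3) to -1.20 (Tssk5), with a median of -3.82 against 0.00 over all genes. All 6 genes were more than 2-fold lower, against 8.22% of all genes, and 5 of 5 among genes with mean FPKM of at least 1, against 12%. The control of this line had higher levels than Pld6 WT for every gene but Tssk5 (1.29 and 1.59 FPKM). Tssk1, Tssk3, Tssk4 and Tssk5 were also lower in Dnmt3L KO than in Pld6 KO, while Tssk2 and Tssk6 were not. The part of either in the larger differences was not tested. With the Pld6 WT library as the control of Dnmt3L KO, that is without Dnmt3L Het, the median was -2.45, and with Dnmt3L Het as the control of Pld6 KO it was -3.48.

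**Figure D2:**
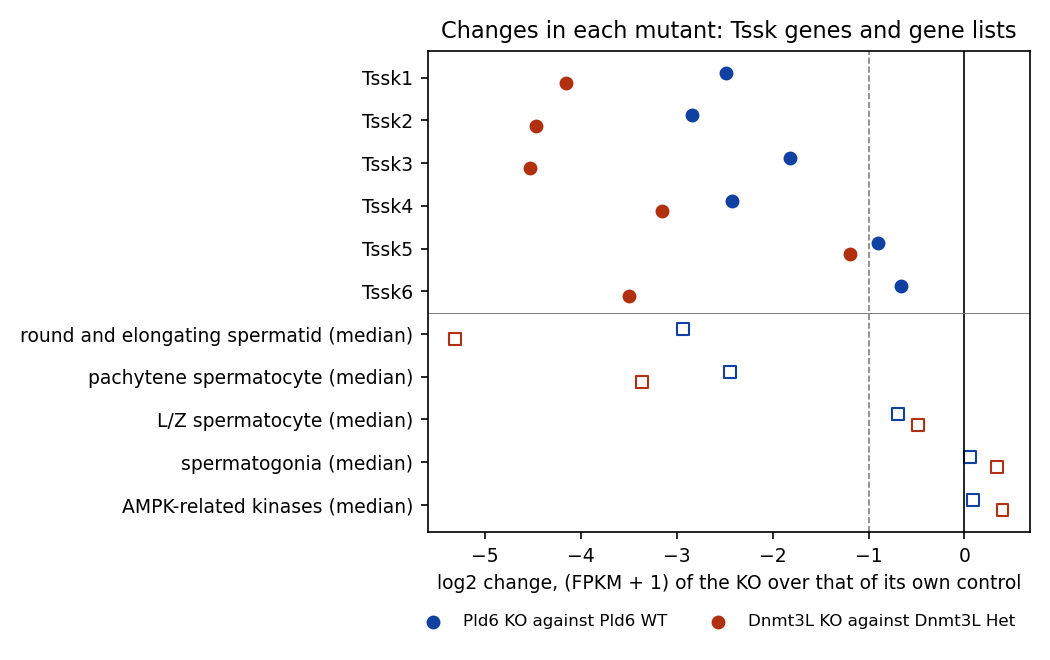
Change in each KO library against the control of its own line, on the log2(FPKM + 1) scale (horizontal axis), for the 6 Tssk genes (filled points) and as the median of 5 gene lists (open squares), with the dashed line at a 2-fold decrease. The 6 genes lie between -4.52 and -0.66 and the lists of L/Z spermatocytes, spermatogonia and AMPK-related kinases between -0.70 and 0.40, so that Tssk6 in Pld6 KO (-0.66) falls within the range of these lists.

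Markers of the later germ cell stages, pachytene spermatocytes and spermatids, were lower in the same libraries, and those of spermatogonia were not. Of 16 markers of round and elongating spermatids, 15 were more than 2-fold lower in Pld6 KO (median -2.94) and 15 in Dnmt3L KO (median -5.31), each against its own control. Their summed level ranged from 7461 FPKM in Dnmt3L Het and 257 FPKM in Pld6 WT to 23.7 FPKM (Pld6 KO) and 39.4 FPKM (Dnmt3L KO), and 2 of the 16 were at 0 fragments in each mutant. Of 16 markers of pachytene spermatocytes, 14 (median -2.44) and 15 (median -3.36) were more than 2-fold lower, among them Ldhc, the germ cell form of lactate dehydrogenase, at 623 and 304 FPKM in the controls against 1.91 FPKM (Pld6 KO) and 2.80 FPKM (Dnmt3L KO). Of 15 L/Z markers, 2 and 1 were more than 2-fold lower (medians -0.70 and -0.48). Of 16 spermatogonial markers, 0 were more than 2-fold lower and 3 more than 2-fold higher in Pld6 KO (median 0.06), and 2 and 1 in Dnmt3L KO (median 0.34). The part of these other cells in the Tssk values was not tested.

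Markers of somatic cells moved otherwise. Of 16 Sertoli cell markers, 9 were more than 2-fold higher in Pld6 KO (median 1.14) and 1 in Dnmt3L KO (median 0.37). On the same log2(FPKM + 1) scale, 0 were more than 2-fold lower in either. Leydig cell markers, 9 genes, were more than 2-fold higher at 9 and 3 genes (medians 1.89 and -0.01), and macrophage markers, 10 genes, at 4 and 2 genes (medians 0.81 and 0.73).

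The kinases nearest to the family were compared next. Of 16 AMPK-related kinases, 0 were more than 2-fold lower and 0 more than 2-fold higher in either mutant, with medians of 0.09 in Pld6 KO and 0.40 in Dnmt3L KO. Their summed level was between 184 FPKM (Dnmt3L Het) and 264 FPKM (Dnmt3L KO). Brsk1, one of them, was at 5.68 FPKM in Pld6 WT and 5.78 FPKM in Pld6 KO, and Melk, a kinase of dividing cells, at 28.3 and 38.6 FPKM. The low values of the Tssk genes in the mutants thus were not seen in this related group. Among all genes, however, only 6.46% were more than 2-fold lower in the Pld6 line and 8.22% in the Dnmt3L line. With shares this low, 0 of 16 does not set these kinases apart from genes at large.

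Of 5 genes known to act with TSSK proteins, 3 were more than 2-fold lower in both mutants. Tsks, the substrate of TSSK1 and TSSK2, was at 27.4 FPKM in Dnmt3L Het and 6.53 FPKM in Pld6 WT, against 0.640 FPKM in Pld6 KO (10.2-fold lower, 7.15 to 15.0) and 0.311 FPKM in Dnmt3L KO (88.0-fold lower, 59.0 to 138). Tsacc, a co-chaperone that activates TSSK proteins, was at 204 and 72.2 FPKM in these controls, against 18.6 FPKM in Pld6 KO (3.89-fold lower) and 24.3 FPKM in Dnmt3L KO (8.41-fold lower). Odf2, a gene of the outer dense fibres of the sperm tail, was at 258 and 129 FPKM, against 40.0 FPKM (3.21-fold lower) and 48.3 FPKM (5.35-fold lower). The broadly expressed partners were within 2-fold in both lines. Pdpk1, an upstream kinase, was at 18.2 and 34.6 FPKM in these controls, with 22.9 FPKM (Pld6 KO) and 20.6 FPKM (Dnmt3L KO) in the mutants. Hsp90aa1, the inducible HSP90 chaperone, was between 593 and 879 FPKM in the 4 libraries. Tsks, Tsacc and Odf2 were thus lower in the libraries where the kinases were lower, but only Tsks stood at levels like those of the kinases there.

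Of 10 transcription regulators of late meiotic and haploid cells, 3 were more than 2-fold lower in Pld6 KO (median -0.91) and 6 in Dnmt3L KO (median -1.27). Crem, the activator that binds the CRE in spermatids, was at 28.0 and 23.7 FPKM in Dnmt3L Het and Pld6 WT, against 7.21 FPKM (Pld6 KO) and 6.71 FPKM (Dnmt3L KO). Rfx2, a regulator of spermatid genes, was at 22.4 and 20.5 FPKM, against 7.23 and 3.67 FPKM. Both regulators stood at like levels in the controls. Of the 10 regulators, 9 were within 2-fold between the controls on the log2(FPKM + 1) scale and 1, Fhl5, was higher in Dnmt3L Het. Fhl5 was at 28.1 FPKM in Dnmt3L Het and 6.12 FPKM in Pld6 WT, against 2.06 FPKM (Pld6 KO) and 0 FPKM (Dnmt3L KO). The part of these regulators in the Tssk values was not tested. Crem, Mybl1 and Tbpl1 are also in the list of pachytene markers.

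The genes beside each Tssk gene were examined to see whether the low values reached beyond the family. Of 10 neighbours that are no Tssk gene, 9 were within 2-fold in both comparisons, between -0.84 and 0.85 on the log2(FPKM + 1) scale, and 1 was lower in both. Among genes with mean FPKM of at least 1, 9.95% were more than 2-fold lower in the Pld6 line and 12% in the Dnmt3L line. With only 10 genes, these counts do not set the neighbours apart from genes at large. Dgcr2 before Tssk1 was at 58.1 FPKM in Pld6 KO against 39.9 FPKM in Pld6 WT, and Ess2 (Dgcr14 in the table), 684 bases after Tssk2 on the opposite strand, was between 12.5 and 14.2 FPKM in the 4 libraries. The exception was Fam229a, a gene on the opposite strand whose RefSeq span overlaps that of Tssk3 by 541 bases. It was at 87.8 FPKM in Dnmt3L Het and 18.8 FPKM in Pld6 WT, against 7.004 FPKM (Pld6 KO) and 4.92 FPKM (Dnmt3L KO). Tssk3 and Fam229a had the same order of the 4 libraries, an order that Tssk1 and Tssk4 had as well. The GENCODE transcript used for Tssk3 shares 0 stretches of 50 bases with those of other genes. Levels were quantified on RefSeq genes, whose spans overlap here, so whether the pair shared reads was not tested.

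**Figure D3:**
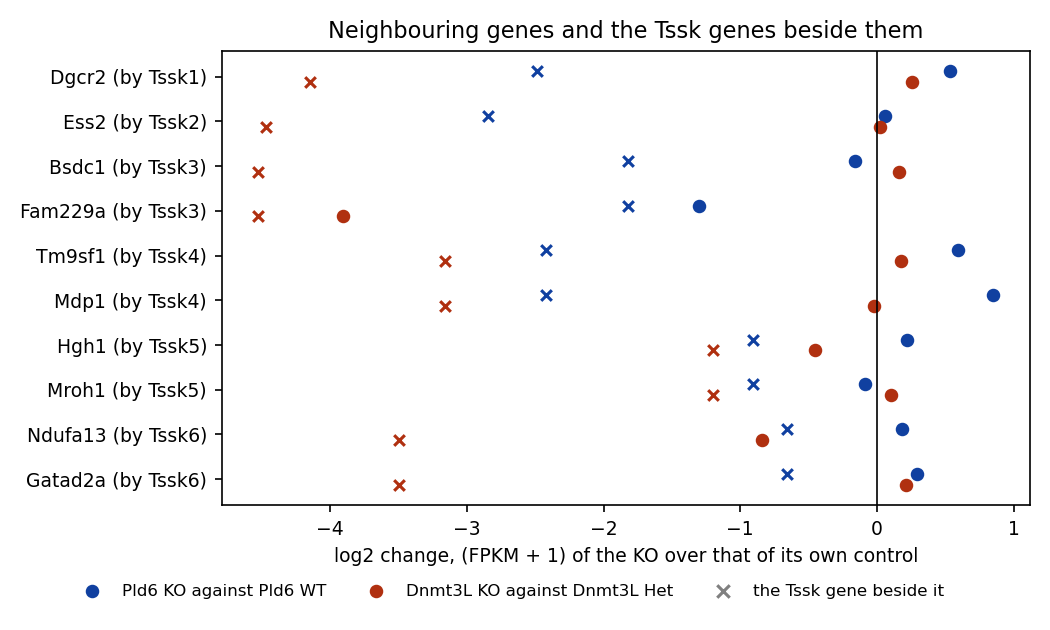
Change of the 10 neighbouring genes (points) and of the Tssk gene beside each (crosses) in each KO library against its own control, on the log2(FPKM + 1) scale. Fam229a, at -1.30 and -3.91, is the neighbour that lies with its Tssk gene, and the other 9 lie between -0.84 and 0.85.

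The 2 controls differed from each other, and not by the same amount for each gene. The ratio of Dnmt3L Het to Pld6 WT was 10.9 for Tssk6 (95% counting interval 8.77 to 13.7), 5.48 for Tssk3 (4.59 to 6.60), 3.96 for Tssk2 (3.61 to 4.34), 1.94 for Tssk1 (1.78 to 2.11), 1.34 for Tssk4 (1.18 to 1.53) and 0.812 for Tssk5 (0.606 to 1.09). The intervals of neighbours in this order did not overlap, and that of Tssk5 includes equal levels. By the rule of more than 2-fold on the log2(FPKM + 1) scale, 3 of the 6 genes were higher in Dnmt3L Het (Tssk6, Tssk3 and Tssk2), against 11.1% of all genes. The median ratio was 5.34 for the 16 spermatid markers and 1.35 for the 16 pachytene markers. Tssk4 and Tssk5 thus lay near or below the median of the pachytene markers, Tssk1 and Tssk2 between the medians, Tssk3 near that of the spermatid markers, which its interval includes, and Tssk6 above it. Both lists were spread around their medians. On the log2(FPKM + 1) scale, 6 of the 16 spermatid markers and 14 of the 16 pachytene markers were within 2-fold between these controls. Tssk1, Tssk4 and Tssk5 were within 2-fold as well, so the medians do not assign a gene to a stage. Genotype, line and cell makeup all differ between these libraries and cannot be told apart.

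**Figure D4:**
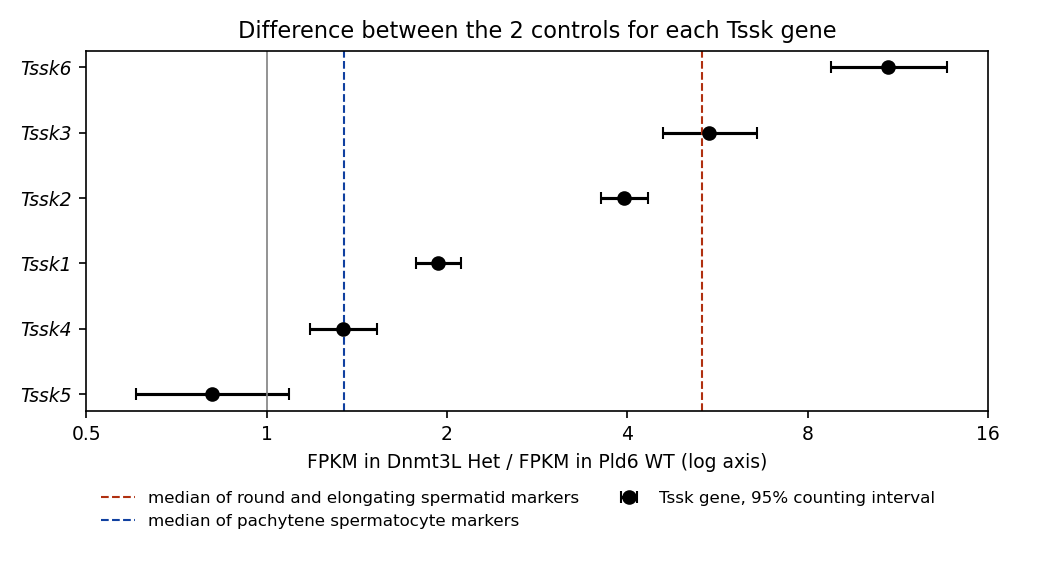
Ratio of FPKM in Dnmt3L Het to FPKM in Pld6 WT on a log axis, with 95% counting intervals, for the 6 Tssk genes in falling order, beside the median ratio of spermatid markers and of pachytene markers (dashed lines). The genes run from 10.9 (Tssk6) to 0.812 (Tssk5), and the medians of the lists stand at 5.34 and 1.35.

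The genes whose pattern over the 4 libraries was most like the mean of the family were sought among 14411 other genes with mean FPKM of at least 1. The measure was the Euclidean distance between log2(FPKM + 1) values after each gene's own mean had been subtracted. The nearest were Spn-ps (distance 0.184), Erich3 (0.207), Gm19395 (0.219), 1700023F06Rik (0.237) and Spata24 (0.253). Erich3 was at 14.3, 4.80, 0.436 and 0.140 FPKM and Spata24 at 173, 73.0, 16.1 and 16.6 FPKM in Dnmt3L Het, Pld6 WT, Pld6 KO and Dnmt3L KO. The distances of the Tssk genes from their own mean ranged from 0.70 (Tssk4) to 1.96 (Tssk5), while the 5 genes were picked for the smallest distances. With 4 libraries such likeness is a description only.

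A model with replicated groups was fitted to the fragments of all genes, although its replicates are libraries of different genotype. With the 2 controls as a group and each mutant alone, the quasi-likelihood test of edgeR (Benjamini-Hochberg adjusted p) called 0 of 18657 genes (0%) in either mutant. The lowest adjusted p of the family was 0.202 (Tssk2, log2 fold -5.33 ± 1.33 SE) in Pld6 KO and 0.125 (Tssk3) in Dnmt3L KO. Without adjustment, 1485 and 1643 genes had p under 0.05, with 4 and 5 of the 6 Tssk genes among them. DESeq2 called 4 Tssk genes in Pld6 KO (Tssk1 to Tssk4), against 5.46% of all genes, and 5 in Dnmt3L KO (all but Tssk6), against 5.26%.

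With both mutants set against both controls, edgeR called 0 of 17686 genes (0%), and 1676 genes had an unadjusted p under 0.05, with 5 of the 6 Tssk genes among them. The log2 fold was -4.99 ± 0.91 (SE) for Tssk2, -4.28 ± 0.78 for Tssk4 and -4.23 ± 0.81 for Tssk1, with edgeR adjusted p-values of 0.118, 0.118 and 0.130. With line as a block, which leaves 1 residual degree of freedom, 6.72% of all genes were called. The Tssk genes called were Tssk2 (edgeR adjusted p = 0.00197), Tssk1 (0.0107) and Tssk4 (0.0111), while Tssk3 (0.0873), Tssk6 (0.124) and Tssk5 (0.266) were not. By DESeq2 without the block 5 of the 6 genes were called, all but Tssk5, against 6.48% of all genes.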

How the data were processed

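Libraries of polyA(+) RNA were made by the authors with a stranded kit and sequenced as 50 bp single-end reads, aligned with TopHat2 and quantified on RefSeq genes with Cuffdiff (versions not given in the sources used here), with mm10 named in the submitters' processing notes. The deposited table gives, per gene and library, an estimated count of fragments before scaling. It also gives FPKM as deposited by the authors, scaled to gene length and between libraries by Cuffdiff. No value of a Tssk gene was marked as failed. The 2 other columns of scaled fragments per library were not used.

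Depth was 30439943 to 63875934 fragments in genes per library, above the reads stated in the study's methods, so intervals may be too narrow. Changes were computed as log2 ratios of FPKM + 1, and called beyond 2-fold. Counting intervals were exact Poisson (levels) and exact conditional binomial (ratios), computed with scipy 1.17.1. A count of 0 was given a set limit of 3 fragments, below the 3.69 that its exact Poisson interval reaches. Folds given as at least use that limit and leave out counting error in the other library. edgeR 4.0.16 (TMM, filterByExpr, quasi-likelihood, R 4.3.3) and DESeq2 1.42.0 were run on fragments rounded to whole numbers, over all genes, with adjusted p under 0.05 as the call. The SE of a fold was taken from the F statistic. The code was tested on simulated data. P-values measure the spread between libraries of different genotype and line. With line as a block, they measure how far the difference between mutant and control differs between the lines, without a replicate of either.

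The members and gene lists were chosen with earlier results of these data known. Named were the 6 genes, 5 partners, both direct neighbours of each gene, the 5 genes nearest in pattern, and genes of the lists that describe which cells gave RNA. Brsk1, Melk, Ldhc, Prm1, Sycp3, Crem, Rfx2 and Fhl5 were picked from their lists after their values were seen. Alternatives were another pseudocount, TMM-scaled fragments, the control of the other line, 4-fold, a filter on mean FPKM, DESeq2, no filter, line as a block and leaving out each library.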

Additional observations from a re-analysis of the deposited data

How the results depend on the processing

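Under the alternatives for FPKM, 35 of 46 log2 changes of single genes moved by more than their counting interval. Another 10, those under the filter on mean FPKM, repeat the reported values and could not move. No sign turned, which the order of the libraries (both mutants below both controls) largely fixed. The median change in Pld6 KO, -2.12 as reported, was -2.99 with a pseudocount of 0.1 FPKM, -3.15 with fragments scaled by library size and TMM, -3.48 with Dnmt3L Het as the control and -2.42 over the 5 genes with mean FPKM of at least 1. In Dnmt3L KO, -3.82 as reported, these were -5.00, -5.34, -2.45 (with Pld6 WT as the control) and -4.15. The number of genes more than 2-fold lower in Pld6 KO, 4 as reported, was 6, 6, 5 and 4 under these settings and 3 at 4-fold. In Dnmt3L KO, 6 as reported, it was 6, 6, 5 and 5, and 5 at 4-fold. That Tssk5 and Tssk6 were not called in Pld6 KO thus depended on the added 1 FPKM. With a pseudocount of 0.1 FPKM they were at -1.80 and -1.09.

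The model calls rested on the fit. Without a filter on low counts edgeR called 437 genes in Pld6 KO, 429 in Dnmt3L KO and 377 in both mutants together. The same fit called 1 Tssk gene in Dnmt3L KO (Tssk3, edgeR adjusted p = 0.0325) and 0 in the other comparisons. DESeq2 called 972, 936 and 1257 genes, with 4, 5 and 5 Tssk genes. Line as a block gave 1189 genes and 3 Tssk genes. Leaving out each library in turn from the comparison of both mutants with both controls gave 0 genes called each time, with the lone library assumed to vary like the others. The cause of these differences was not tested. No genotype had a replicate, so depth is not the only limit. The limit of 3 fragments for a Tssk gene at 0 fragments is a set value.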

Other observations

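The low levels left in the mutants were set side by side. Between Dnmt3L KO and Pld6 KO, Tssk2 stood at a ratio of 1.49 (95% counting interval 0.929 to 2.44) and Tssk6 at 1.11 (0.695 to 1.82), and both intervals include equal levels. Tssk1 was lower in Dnmt3L KO, at a ratio of 0.345 (0.221 to 0.529), and so was Tssk4, at 0.456 (0.223 to 0.906). Tssk3 was at least 5.48-fold and Tssk5 at least 7.97-fold lower in Dnmt3L KO than in Pld6 KO, where they rest on 11 and 16 fragments. None of the 6 genes was more than 2-fold apart between the mutants on the log2(FPKM + 1) scale. With no value above 1.67 FPKM in either mutant, the added 1 FPKM largely fixed that outcome, so it does not show that the mutants were alike. With 1 library each, these differences have no replicate check.

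The gap between the controls was wider for the chromatin proteins of late spermatids than for any Tssk gene. Prm1 was at 2372 FPKM in Dnmt3L Het and 16.3 FPKM in Pld6 WT, and Tnp1, a transition protein, at 2007 and 35.5 FPKM. Acrv1, an acrosome protein made by round spermatids, was at 19.3 and 14.8 FPKM. Hspa1l, a chaperone of spermatids, was at 32.7 and 4.22 FPKM in the controls and at 3.53 FPKM in Pld6 KO, so that Pld6 WT lay near the mutant for this gene as it did for Tssk6. These 4 genes were picked after their values had been seen.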
